A study of Mus musculus with 4 samples.

Results

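The MHC class II antigen presentation genes Ciita, Cd74, H2-Aa, H2-Ab1, H2-Eb1, H2-DMa and H2-DMb1 were followed in the DNA methylomes of mouse colonic epithelium. These 7 genes, of 21418 protein-coding genes in the GENCODE M1 annotation of mm9, were listed by name for their place in the pathway. Earlier results of these data were known when the list was made. Whole-genome bisulfite sequencing (WGBS), in which unmethylated cytosines are read as T and methylated ones as C, was carried out on 4 groups with 1 library each: Lgr5-EGFP+ intestinal stem cells (ISCs) and EpCAM+, Lgr5-EGFP- differentiated epithelial cells, both at P0 (birth, day 0) and at P21 (day 21, the end of suckling). All mice were of the C57 strain and came from crosses of wild-type mice with Lgr5-EGFP-CreER mice, which carry EGFP and Cre under the Lgr5 regulatory sequences. The labels give no treatment for any of the 4 groups. Each library was a pool, of litters at P0 and of reporter-positive offspring at P21, so no difference could be set against the spread between mice. Whether both populations of an age came from the same mice is not stated. Changes with age seen in both may therefore not be independent. The study describes Cre in this line as mosaic, so an EGFP-negative gate can hold stem cells as well as their descendants. The libraries held 1011013849 to 1172882021 calls on the autosomes, with a median of 16 to 25 calls per CpG, least in ISCs at P0. A call is 1 read of 1 CpG cytosine with both strands summed.

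MHC class II molecules are pairs of an alpha and a beta chain that carry peptides from endocytosed proteins to the surface, where CD4+ T cells read them. In the C57 strain the pair is I-A, made of H2-Aa and H2-Ab1, while H2-Eb1 encodes the beta chain of I-E, whose alpha chain gene H2-Ea is known to be defective in that strain. Cd74 encodes the invariant chain that fills the peptide groove until the endosome, and H2-DMa and H2-DMb1 encode the pair that exchanges its remnant for peptide. Ciita, the class II transactivator, is the factor that switches these genes on together, through proteins bound at X and Y boxes before their starts. Professional antigen-presenting cells use it constantly, and intestinal epithelium is known to make class II molecules as well, above all under interferon-gamma. Ciita has several alternative promoters, of which the innermost is the one that answers to interferon-gamma.

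The sequences at 5 of these starts are shown because they hold letters of the elements through which the genes are known to be switched on. They are from mm9, written 5′ to 3′ on the strand of the gene. For the chain genes, capitals mark the Y box (letters TGATTGG) and the X box core (AGNNACNGA) or, in H2-Aa, the cAMP response element TGACGTCA of the same box. In the window of Ciita, whose inner start lies 9639 bp after its first one, capitals mark a GAS element (TTCNNNGAA), an E box (CACGTG) and an interferon response element (GAAANNGAA), in that order.
H2-Ab1, chr17:34400054-34400153, + strand: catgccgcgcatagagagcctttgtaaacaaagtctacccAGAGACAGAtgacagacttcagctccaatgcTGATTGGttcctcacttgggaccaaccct
H2-Aa, chr17:34424773-34424882, - strand: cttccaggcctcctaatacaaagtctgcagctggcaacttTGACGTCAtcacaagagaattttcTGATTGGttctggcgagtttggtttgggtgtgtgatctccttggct
H2-Eb1, chr17:34442708-34442827, + strand: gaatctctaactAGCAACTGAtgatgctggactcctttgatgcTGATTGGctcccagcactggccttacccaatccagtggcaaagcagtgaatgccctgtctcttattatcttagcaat
H2-DMb1, chr17:34290017-34290106, + strand: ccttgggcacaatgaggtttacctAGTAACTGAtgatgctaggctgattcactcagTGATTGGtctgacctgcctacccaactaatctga
Ciita inner start, chr16:10489700-10489899, + strand: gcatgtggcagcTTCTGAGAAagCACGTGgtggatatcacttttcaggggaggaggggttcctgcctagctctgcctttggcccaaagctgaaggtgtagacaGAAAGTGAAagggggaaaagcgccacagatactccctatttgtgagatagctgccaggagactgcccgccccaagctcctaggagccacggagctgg

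An X box core followed within 60 bases by a Y box on the gene strand was found in H2-Ab1, H2-Eb1 and H2-DMb1, and in 18 of the 21418 windows from 300 bases before to 100 bases after a start, or 0.0840%. Searched on both strands, the Y box letters stood in 9.16% of those windows, the X box core in 21.8%, TGACGTCA in 2.46%, TTCNNNGAA in 10.2%, CACGTG in 9.24% and GAAANNGAA in 11.5%. The Y box letters were chosen after the windows had been seen. In H2-DMb1 both lay just after the annotated start. A match of letters does not show that a factor binds there.

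The chain genes H2-Ab1 and H2-Aa were unmethylated at the CpGs of the bins that span these boxes, in both populations and at both ages. In H2-Ab1 (chr17:34400154-34406363, + strand), the bin of 200 bp over the boxes, centred at -53 bp from the start, held 0 methylated of 59 calls in ISCs at P0 (a count that leaves room for up to 5.08%). It held 1 of 129 in differentiated cells at P0, 0 of 82 in ISCs at P21 (up to 3.66%) and 0 of 85 in differentiated cells at P21 (up to 3.53%). The CpGs of this bin lay at -133, -95 and -93 bp, before the X box, and no CpG lay inside either box. All limits and intervals given here cover counting error only. They count each call as independent, but neighbouring CpGs can share a read. The CpGs at -95 and -93 bp had 20 and 18 calls in ISCs at P0. The limits and intervals are therefore too narrow. The next bin, at +147 bp, was as low, at 0% to 3.09%. In H2-Aa (chr17:34406276-34424772, - strand), the bin at -129 bp held 1 of 59, 2 of 89, 0 of 38 and 0 of 59 methylated calls in the order ISC P0, differentiated P0, ISC P21 and differentiated P21. The CpG inside its TGACGTCA had 0 of 20, 1 of 34, 0 of 13 and 0 of 22 methylated calls in the same order.

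The other chain gene, H2-Eb1 (chr17:34442828-34453144, + strand), had no CpG in the stretch printed above, and no bin over the start could be tested. Its first bin inside the gene, at +273 bp in intron 1, read 84.2% at P0 and 70.1% at P21 for ISCs, and 89.7% and 70.7% for differentiated cells. The nearest tested bins before the start, at -727 and -927 bp, were low, at 10.8% to 31.0% over the 4 libraries.

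The peptide-exchange pair was unlike within itself. H2-DMa (chr17:34272127-34276046, + strand) was unmethylated just inside the gene, where the bin at +174 bp held 0 of 135, 3 of 501, 0 of 186 and 1 of 248 methylated calls in ISC P0, differentiated P0, ISC P21 and differentiated P21. The bin over its start was of middling level, at 36.2%, 46.2%, 27.3% and 29.4% in that order. The CpGs of this bin were unlike. That at -40 bp had 14 of 16, 11 of 11, 17 of 17 and 6 of 6 methylated calls. The CpG at -12 bp had 1 of 11, 4 of 10, 1 of 28 and 1 of 9. H2-DMb1 (chr17:34290017-34297168, + strand) had no bin under 10% in any library. Its bin over the boxes, at +84 bp, stood at 44.2% (Wilson 95% interval 30.4% to 58.9%) in ISCs at P0 and 65.7% (49.2% to 79.2%) in differentiated cells at P0, and at 56.8% and 51.4% at P21. Cd74 (chr18:60963502-60972300, + strand) was methylated across its start in every library, at 93.1% and 80.0% at P0 and 89.4% and 76.7% at P21 for ISCs and differentiated cells.

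Ciita (chr16:10480237-10527657, + strand) differed between its own starts. Within 500 bp of the first start, ISCs went from 68.4% at P0 to 85.6% at P21, while differentiated cells read 78.2% and 78.7%. The starts at +8034, +8135 and +8155 bp, whose windows nearly coincide, were methylated at 83.0% to 87.5% in all 4 libraries. The inner start at +9639 bp, which the annotation gives a record of its own, stood at 11.6%, 6.33%, 7.34% and 5.02% in ISC P0, differentiated P0, ISC P21 and differentiated P21. The 4 libraries thus read the same order of starts, high at the outer ones and low at the inner one. The CpG of the E box printed above was methylated in 0 of 22, 2 of 53, 0 of 28 and 0 of 49 calls, and the bin at +9664 bp from the first start held 3 of 137, 11 of 556, 0 of 226 and 7 of 484.

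**Figure D1:**
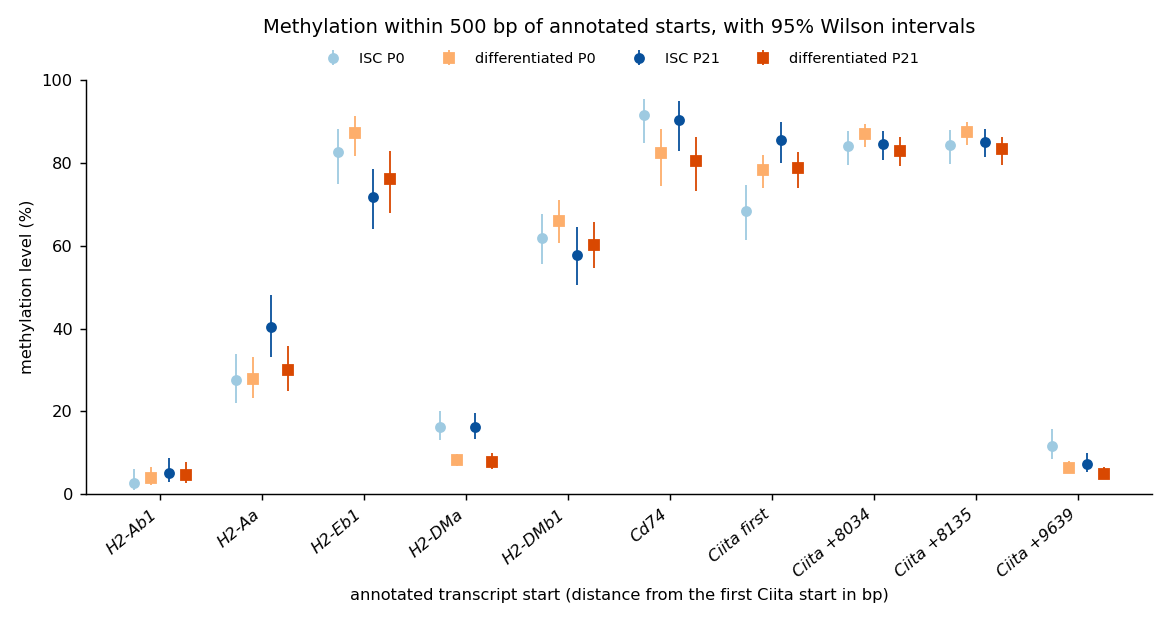
Methylation level in percent of calls within 500 bp of the annotated transcript starts, with 1 point per library and 95% Wilson intervals from counting error; the Ciita starts are labelled by their distance in bp from the first one. H2-Ab1, H2-DMa and the inner Ciita start at +9639 bp sit below 20% in every library, while Cd74, H2-Eb1 and the outer Ciita starts sit above 60%. The CpG of H2-Eb1 nearest its start lies inside the gene, at +164 bp, and its nearest tested bins before the start were low.

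Over the whole of each gene, from 5 kb upstream to the gene end, the 7 genes held 336 bins that met the minimum of 2 CpGs and 10 calls in every library, with a median of 61 calls in ISC P0, 97 in differentiated P0, 62.5 in ISC P21 and 83 in differentiated P21. Ciita, the longest of the genes, held the most, the other genes held 28 to 39 each, and 1 was shared by H2-Aa and H2-Ab1, whose gene records overlap at their 3′ ends. The H2-Aa transcript used here ends before that bin. The median level of the 336 bins was 77.9%, 78.8%, 78.7% and 78.6% in the 4 libraries in the same order, against 85.7%, 85.6%, 85.9% and 85.4% over all 4076373 bins tested on the autosomes. In all 4 libraries 18 member bins were under 10%, namely 8 at H2-Ab1, 4 at H2-DMa, 4 at Ciita and 2 at H2-Aa, and 243 were over 50%. Cd74 had 37 of its 39 bins over 50% in all libraries. Its lowest bin in ISCs at P0, at -1201 bp, stood at 43.5%, 64.3%, 78.8% and 85.7% in the 4 libraries in the same order and was not called. A level between these ends can come from CpGs that differ within the bin, from cells that differ or from alleles within a cell. Cells and alleles cannot be told apart in sorted pools.

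H2-Ab1 held a long stretch of low methylation. From -53 to +2147 bp from its start, bins stood at 21.8% or less in all libraries, and 5 bins of its body with 98 CpGs between them held 2.50%, 2.95%, 5.53% and 2.84% methylated calls in ISC P0, differentiated P0, ISC P21 and differentiated P21. In the rest of the body the level was 81.2%, 79.9%, 81.5% and 84.2%. Pooled, the H2-Ab1 body stood at 36.5% for ISCs against 23.5% for differentiated cells at P0, and at 39.8% against 26.6% at P21, but the 5 CpG-rich bins gave 56.8% and 54.9% of the body's calls in the ISC libraries against 73.2% and 70.7% in the differentiated ones. Their share of the calls thus moved with the pooled level. H2-Eb1 had a similar CpG-rich dip over exon 2, the exon of the peptide-binding domain, where 19 CpGs of the bin at +3873 bp stood at 7.69%, 13.0%, 17.7% and 11.2%. Other dips stood apart from the annotated starts of the members, and starts of other genes near these dips were not examined. The bin at +17664 bp of Ciita had 0 methylated calls in all 4 libraries (of 14, 27, 27 and 18, which leave room for up to 21.4%). That at -3929 bp of H2-Aa had 0 of 65, 7 of 143, 3 of 114 and 8 of 180 methylated calls. The bins at +2484 and +2684 bp of H2-DMb1 stood at 28.4% to 40.2%.

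**Figure D2:**
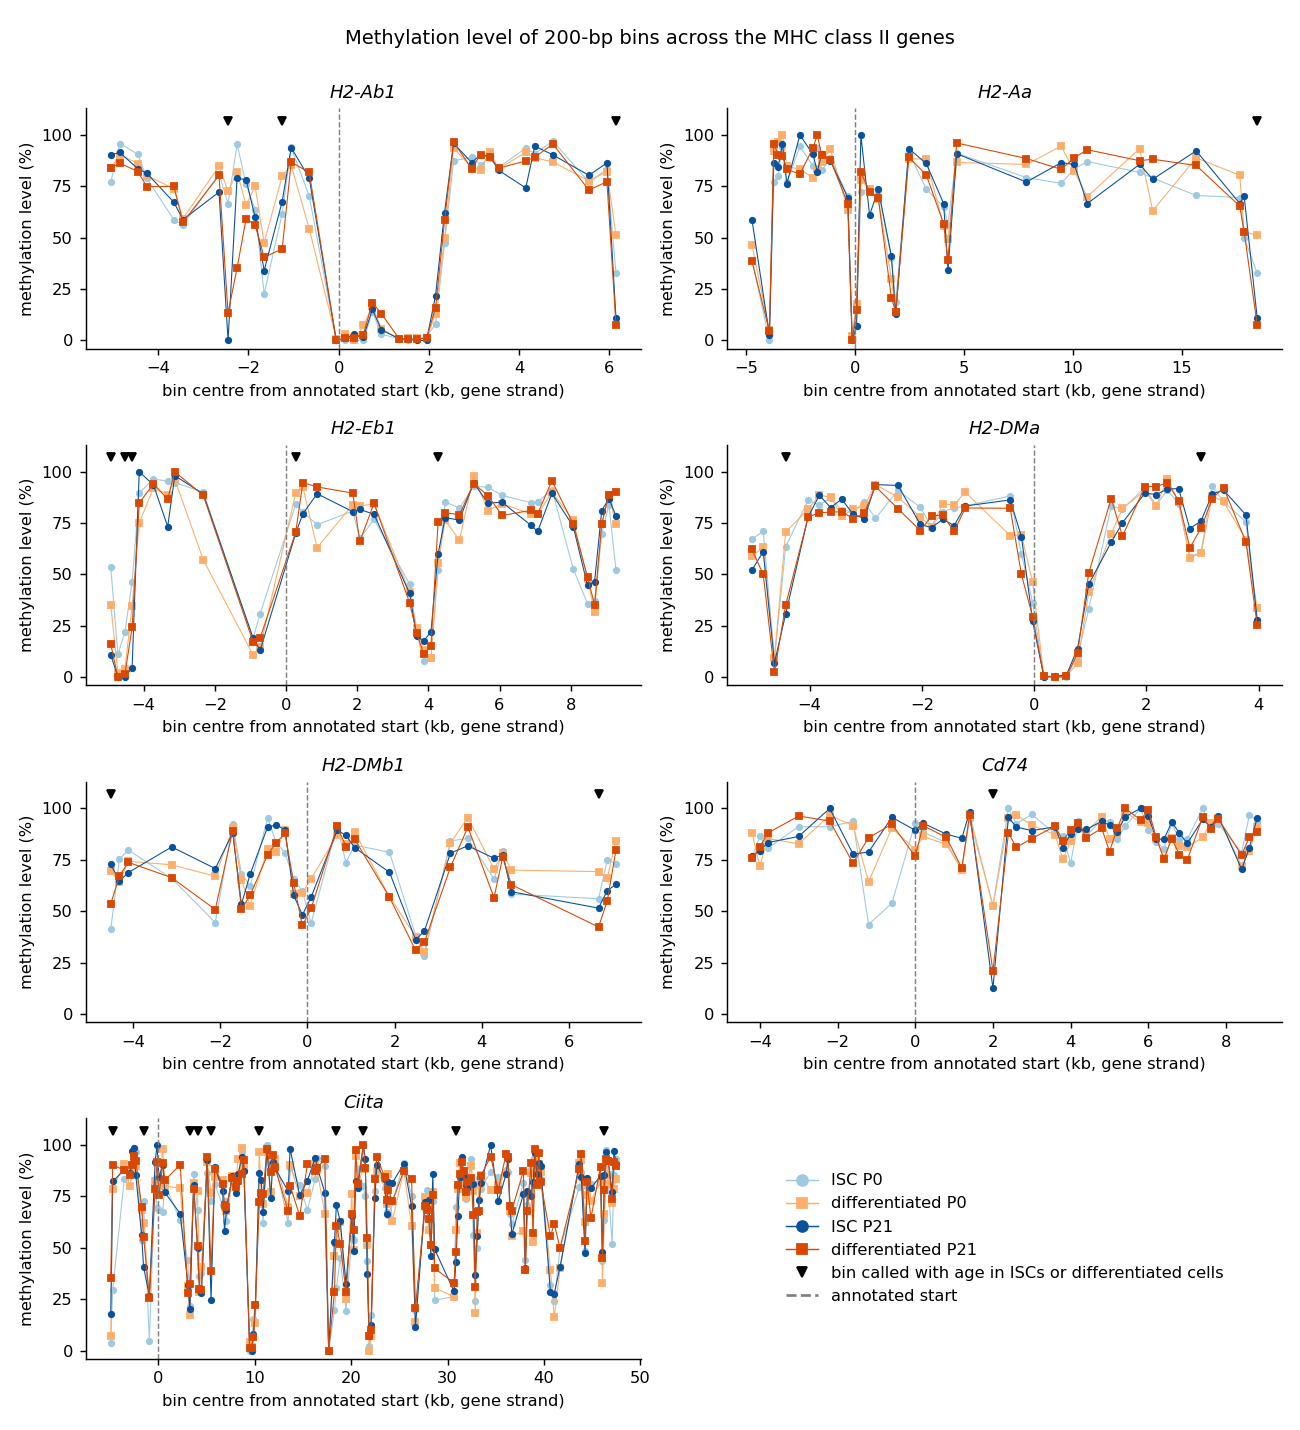
Methylation level in percent of each tested 200-bp bin against the distance of its centre from the annotated start in kb, for the 7 genes in the 4 libraries; the dashed line is the start and triangles mark bins called between P0 and P21 in either population. H2-Ab1 stays at 21.8% or less from -53 to +2147 bp, and Cd74 stays high except at +1999 bp and, in ISCs at P0, near -1201 bp. Called bins sit away from the unmethylated starts of H2-Ab1, H2-Aa and H2-DMa. The called bin at +10464 bp of Ciita lies within 1 kb of its inner start.

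Promoters, taken as 1 kb to either side of the start, ranged over the genes from 10.2% to 83.8% in ISCs at P0. H2-Ab1 and H2-DMa were below 20% in every library, H2-Aa and H2-Eb1 stood between 38.9% and 56.9%, and H2-DMb1, Cd74 and Ciita between 66.7% and 89.6%. Among promoters of all genes, where the median was 13.0% in ISCs at P0, Cd74 lay at percentile 86.7 and H2-Ab1 at percentile 45.2. The promoters of Ciita, Cd74, H2-Aa, H2-Eb1 and H2-DMb1 held no CpG in an island, taken as 25 or more CpGs in 500 bp. The median over the 8027 promoters without one was 77.5% in ISCs at P0, against 83.8% for Cd74, 66.7% for Ciita, 71.5% for H2-DMb1, 56.9% for H2-Eb1 and 40.9% for H2-Aa. The median body level of all genes was 80.5% in ISCs at P0. The body of Ciita stood at 68.0% (percentile 15.5), that of H2-Ab1 at percentile 3.66, that of H2-Eb1 at percentile 6.28 and that of Cd74, with 87.4%, at percentile 82.8.

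**Figure D3:**
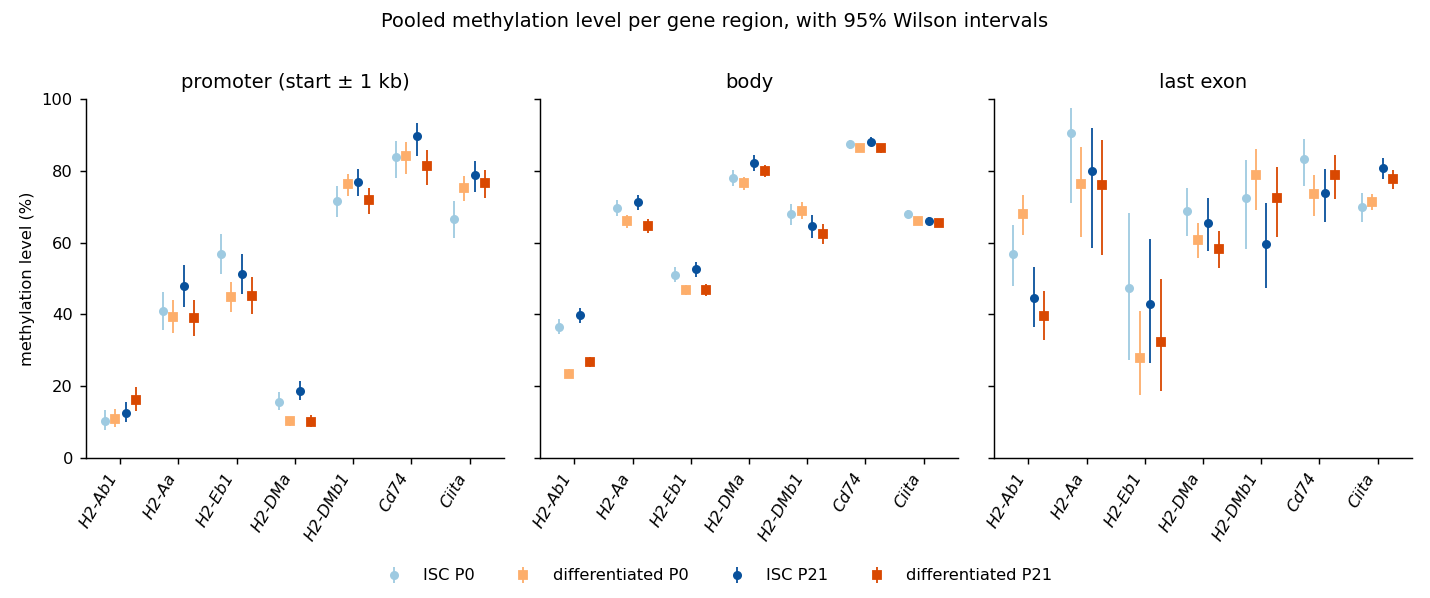
Methylation level in percent of calls pooled over the promoter, body and last exon of each gene, with 1 point per library and 95% Wilson intervals. Promoters run from below 20% in H2-Ab1 and H2-DMa to above 80% in Cd74, and the last exon of H2-Ab1 stands lower at P21 than at P0; the wide last-exon intervals of H2-Aa and H2-Eb1 come from 1 CpG each.

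The first comparison was that of P21 with P0 within each population, which asks whether methylation changes over early postnatal life. In ISCs, 16 of the 336 member bins were called between these ages by Fisher's exact test with Benjamini-Hochberg adjustment over all bins tested (called where the adjusted p was below 0.05 and the levels lay over 15 percentage points apart). Of these, 10 lost methylation (2.98% of member bins, against 1.48% of all bins) and 6 gained it (1.79%, against 1.07%). In differentiated cells 13 were called, of which 11 lost methylation (3.27%, against 1.86%) and 2 gained it (0.595%, against 0.992%). A loss was called in both populations in 6 bins (1.79%, against 0.673%) and a gain in both in 0, where 0.255% of all bins gained in both. The unadjusted p was below 0.05 in 55 member bins for ISCs (16.4%, against 12.8% of all bins) and in 51 for differentiated cells (15.2%, against 14.1%). In 6 of 8 bins with a called gain both populations stood higher at P21 (75%, against 77.9% of all bins with a called gain). With 1 library per group these tests compare 2 libraries, not the ages, and calls from the same read or its PCR copies are not independent, so the p-values are too small.

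A bin below 15% cannot lose 15 points, so no loss could be called at the unmethylated starts. Of the 23 bins called with age in either population, 1 was in a promoter, that at +273 bp of H2-Eb1. Promoters held 43 of the 336 bins tested. The share called among promoter bins of all genes was not counted, so this number has no background beside it. The called Ciita bin at +10464 bp lies within 1 kb of the inner start at +9639 bp, outside the promoter of the first start. The losses were in upstream sequence, introns, inner exons and the shared 3′ end of H2-Ab1. Sequences are shown for 4 bins on chromosomes 16 and 17, because losses were called there in both populations and a search of mm9 found no other match to them. They are written 5′ to 3′ on the + strand, with the CpGs that were read in capitals.
H2-Ab1 bin at -2453 bp, chr17:34397601-34397800: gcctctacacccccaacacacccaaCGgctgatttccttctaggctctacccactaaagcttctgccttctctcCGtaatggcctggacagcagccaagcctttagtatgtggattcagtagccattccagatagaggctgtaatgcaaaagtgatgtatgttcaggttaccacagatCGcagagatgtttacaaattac
H2-Eb1 bin at -4927 bp, chr17:34437801-34438000: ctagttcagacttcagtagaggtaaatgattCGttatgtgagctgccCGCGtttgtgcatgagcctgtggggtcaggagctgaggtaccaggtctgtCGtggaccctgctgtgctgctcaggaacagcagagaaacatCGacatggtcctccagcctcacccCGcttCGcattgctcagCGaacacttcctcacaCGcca
H2-DMa bin at -4426 bp, chr17:34267601-34267800: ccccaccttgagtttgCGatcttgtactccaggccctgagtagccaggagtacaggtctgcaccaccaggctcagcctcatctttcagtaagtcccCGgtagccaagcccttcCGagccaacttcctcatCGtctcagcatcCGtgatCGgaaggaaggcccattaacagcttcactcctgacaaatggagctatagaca
Ciita bin at +4064 bp, chr16:10484201-10484400: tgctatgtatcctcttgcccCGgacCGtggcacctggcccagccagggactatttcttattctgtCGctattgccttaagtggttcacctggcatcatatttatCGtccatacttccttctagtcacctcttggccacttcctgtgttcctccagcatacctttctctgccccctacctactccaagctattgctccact

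The largest of the called losses was upstream of H2-Ab1. Its bin at -2453 bp, outside any annotated gene, went from 66.7% (24 of 36 calls, interval 50.3% to 79.8%) to 0 of 25 calls (up to 12%) in ISCs, and from 72.6% (61 of 84) to 13.3% (4 of 30) in differentiated cells. Both P21 libraries were below both P0 libraries, and the intervals did not overlap. The loss was 66.7 points in ISCs (Fisher's exact test, adjusted p = 5.8e-06) and 59.3 points in differentiated cells (adjusted p = 2.7e-06). Its 3 CpGs shared it: the middle CpG went from 3 of 7 and 26 of 34 calls at P0 to 0 of 12 and 0 of 9 at P21, and the last from 17 of 22 and 20 of 22 to 0 of 11 and 4 of 12. In bins shifted by 100 bp the ISC loss was 50 points and no longer called (adjusted p = 0.12, exact test). The bin at +6147 bp, in exon 6 of H2-Ab1 and at the 3′ end of the H2-Aa record, stood at 32.8% and 51.2% at P0 and at 11% and 7.69% at P21. It fell by 43.5 points in differentiated cells (adjusted p = 1.2e-10, Fisher's exact test), while in ISCs the difference of -21.9 points missed the threshold (adjusted p = 0.061) and passed it with a minimum of 40 calls per bin (adjusted p = 0.043, exact test). In shifted bins the loss of differentiated cells at this place was 27.4 points and still called. The ISC difference there was -13.5 points and not called (adjusted p = 0.39, exact test).

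Upstream of H2-Eb1, 3 bins within 1 kb were called lower at P21 in ISCs. The bin at -4927 bp, within the processed transcript Gm20513 and with 9 CpGs, stood at 53.6% (67 methylated calls) and 35% (121 of 346) at P0 and at 10.9% (13 of 119) and 16.1% (37 of 230) at P21, in ISCs and differentiated cells. It fell by 42.7 points in ISCs (Fisher's exact test, adjusted p = 2.8e-10) and by 18.9 points in differentiated cells (adjusted p = 7.0e-05). The bins at -4527 and -4327 bp were called in ISCs, where they fell from 22.2% to 0 of 44 calls (up to 6.82%) and from 46.3% to 4.69% (adjusted p = 0.042 and 2.5e-05, exact test). In differentiated cells these bins stood at 4.21% and 34.7% at P0 and at 1.75% and 24.2% at P21, and neither was called. In bins shifted by 100 bp the loss of differentiated cells at -4927 bp was 28.5 points. The difference between the 2 populations in the change at -4927 bp, 23.8 points, had an adjusted p of 0.055 in a z test of binomial proportions.

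H2-DMa and Ciita lost methylation far from their starts in both populations. The H2-DMa bin at -4426 bp, next to a bin at 2.31% to 9.56% in all 4 libraries, stood at 63.5% (of 170 calls) and 70.5% (206 of 292) at P0 and at 30.8% (56 of 182) and 35.1% (80 of 228) at P21. It fell by 32.8 points in ISCs and 35.5 points in differentiated cells (Fisher's exact test, adjusted p = 3.0e-07 and 3.7e-13). All of its 6 CpGs were lower at P21 than at P0 in both populations. In intron 1 of Ciita, the bin at +4064 bp stood at 68.5% and 77.7% at P0 and at 49.8% and 50.9% at P21, on 197 to 452 calls. It fell by 18.8 and 26.8 points in the 2 populations (adjusted p = 0.0089 and 1.9e-13, exact test). The bin at +5464 bp of the same intron stood at 73.0% and 76.5% at P0 and at 24.6% and 38.6% at P21 and was called in both, but 882 other places in mm9 matched it over 100 bases or more, 809 of them at 95% identity or more, so reads of other copies could have been placed there.

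Cd74 held 1 called bin, at +1999 bp in intron 1. It read 52.9% at P0 (37 of 70 calls) and 12.5% at P21 (8 of 64) for ISCs, against 52.3% (46 of 88) and 20.8% (15 of 72) for differentiated cells. The intervals of the populations overlapped at each age, and both fell by 40.4 and 31.4 points with age (Fisher's exact test, adjusted p = 9.8e-05 and 0.0029). Like the bins printed above, this bin had no other match in mm9, but its sequence is not printed here. The bin holds 2 CpGs, and in bins shifted by 100 bp the ISC loss was 24.9 points and not called (adjusted p = 0.22, exact test). The bins at +1399 and +2399 bp on either side stood at 88.1% to 100% in all 4 libraries.

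Losses were called in 1 population at 6 further bins. In ISCs these were the Ciita bins at -1536 bp, from 72.7% to 40.8%, and at +30864 bp in exon 10, from 69.7% to 43.0%, where differentiated cells stood at 62.0% and 58.5% at P0 and 55.4% and 48.1% at P21. In differentiated cells they were the bins at -1253 bp of H2-Ab1, from 80.0% to 44.7%, at +273 bp of H2-Eb1, from 89.7% to 70.7%, at +10464 bp of Ciita, from 96.9% to 72.2%, and at +6684 bp of H2-DMb1, from 69.2% to 42.3%. In bins shifted by 100 bp 3 of these calls in differentiated cells ended: the differences were -13.6 points at -1253 bp of H2-Ab1, -12.9 at +273 bp of H2-Eb1 and -17.5 at +10464 bp of Ciita, while the ISC loss at -1536 bp of Ciita was 49.0 points. The H2-DMb1 bin at +6684 bp has a copy of 97.5% identity over 200 bases elsewhere in mm9, and H2-DMb2 is a close relative of this gene. Of these 6, a difference in the change between the populations was called at Ciita +10464 bp (z test of binomial proportions, adjusted p = 0.0081). At the others it was not shown that the populations differed.

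Fewer gains than losses were called, 6 against 10 in ISCs and 2 against 11 in differentiated cells, but of the differences over 15 points without a test 31 were higher and 25 lower in ISCs, and 18 higher and 23 lower in differentiated cells. The shares of such untested differences over all bins are not given here. In H2-DMa, the bin at +2974 bp over exon 3 stood at 60.8% and 60.3% at P0 and at 76.0% and 72.6% at P21, and rose by 15.2 points in ISCs (Fisher's exact test, adjusted p = 0.014); the 12.3 points of differentiated cells (adjusted p = 0.0011) lay under the 15 that a call needed, and the ISC gain was absent in bins shifted by 100 bp, at -0.0240 points. In Ciita, gains were called in ISCs at +46264 bp in the last exon, from 63.4% to 85.6%, at +21264 bp, from 80.0% to 50 of 50 calls, at +18464 bp, from 30.3% to 70.7%, and at -4736 bp, from 29.6% to 82.4%. At +21264 bp 1 of the 2 CpGs carried the gain, from 17 of 26 to 28 of 28 calls. The other CpG of that bin had 19 of 19 and 22 of 22. The H2-DMb1 bin at -4516 bp, in exon 3 of H2-DMb2, rose in ISCs from 41.2% to 72.7%. The Ciita -4736 bp bin is a low-complexity stretch whose short pieces recur throughout the genome. Differentiated cells rose at +3264 bp of Ciita, from 17.1% to 32.4%, and at +4273 bp of H2-Eb1, from 55.4% to 75.4%. In bins shifted by 100 bp neither was called, with differences of 5.79 and 10.7 points, and the ISC gain at -4736 bp of Ciita was 22.0 points in place of 52.7. In 5 of the 6 ISC gains the ISC P0 library was the lowest of the 4. A called ISC gain has ISC P0 below ISC P21 by selection, so this order was in part set in advance. Its share over all bins with a called ISC gain was not counted.

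**Figure D4:**
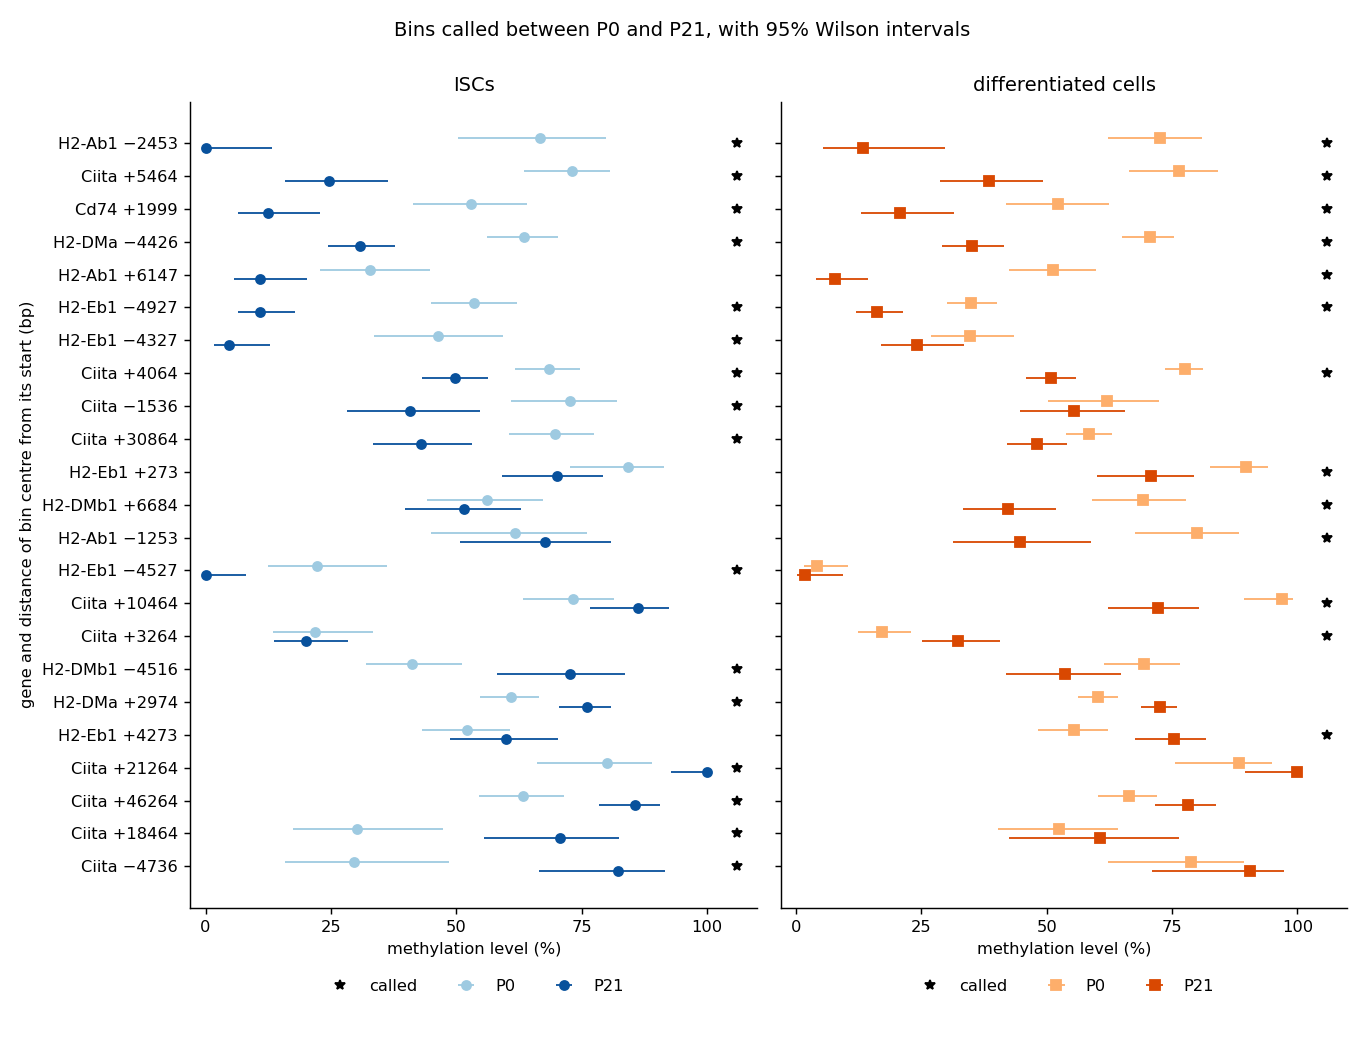
Methylation level in percent at P0 and P21 in the 23 bins called with age, with 95% Wilson intervals; the left panel shows ISCs and the right panel differentiated cells, and a star marks a called difference. In the 6 bins lost in both, P21 lies below P0 in each panel, and of all 23 bins 19 moved in the same direction in the 2 populations (82.6%, against 81.2% of all bins called in either).

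Over whole regions, the levels had to lie over 10 points apart at an adjusted p below 0.05 for a call, and 3 of the members' regions passed in either population. In ISCs the Ciita promoter rose from 66.7% to 78.7% (Fisher's exact test, adjusted p = 0.0053), where 4.27% of promoters were called, and its last exon from 69.9% to 80.7% (adjusted p = 4.0e-04), where 6.09% of last exons were. In that last exon differentiated cells stood at 71.4% and 77.6%, and their difference of 6.24 points passed the adjusted p (0.0067, Fisher's exact test) but not the size. With a minimum of 40 calls in place of 10 the promoter gain was 4.69 points and not called. Differentiated cells stood at 75.2% and 76.5% in the same promoter, and no member promoter was called in them, against 3.64% of all promoters. Their 1 called region was the last exon of H2-Ab1, which fell from 67.9% to 39.6% (adjusted p = 6.2e-08, exact test) and holds the shared bin described above, against 5.86% of all last exons. ISCs stood at 56.7% and 44.7% there (adjusted p = 0.25, exact test). No body was called in ISCs, against 2.5% of all bodies, or in differentiated cells, against 2.49%. Some bodies passed the adjusted p with a difference under the 10 points that a call needed: in ISCs these were Ciita (-1.94 points, Fisher's exact test, adjusted p = 0.025) and H2-DMa (4.20 points, 0.032). In differentiated cells they were H2-Ab1 (3.09 points, Fisher's exact test, adjusted p = 0.0038), H2-DMa (3.55 points, 0.013) and H2-DMb1 (-6.48 points, 0.0018). As a mean over CpGs the Ciita difference was -0.00336 points and that of H2-Ab1 1.22, and with a minimum of 40 calls that of Ciita was -3.52. With promoters of 500 bp to either side, which lengthen the bodies, the H2-DMa body differed by 8.25 points in ISCs and 6.13 in differentiated cells.

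Few bins were called between the populations. At P0, 4 member bins (1.19%, against 0.508% of all bins) were called between differentiated cells and ISCs by Fisher's exact test, and all 4 were lower in ISCs: Ciita at -4736 bp (29.6% against 78.8%), at +464 bp (67.6% against 98.2%) and at +10464 bp (73.3% against 96.9%), and H2-DMb1 at -4516 bp (41.2% against 69.5%). In bins shifted by 100 bp 2 were called, 1 in each direction, and with at least 40 calls or at least 4 CpGs 3 of 4 were lower in ISCs. Over all bins tested, 11731 of the 20705 called at P0 were lower in ISCs. The H2-DMb1 bin at -4516 bp has a copy of 98.9% identity over 189 bases. At P21, 0 bins were called by the same test, against 0.182% of all bins, while 34 had an unadjusted p below 0.05 (10.1%, against 8.81% of all bins), and the lowest adjusted p was 0.14. In the 6 bins lost in both populations, ISCs and differentiated cells were at most 13.9 points apart at P21. The change with age differed between the populations in 3 bins (0.893%, against 0.413% of all bins), all with the more negative change in differentiated cells, which are the bins of Ciita at +10464 bp, of H2-DMb1 at -4516 bp and of H2-Eb1 at +3873 bp. With at least 20 calls, at least 40 calls or at least 4 CpGs, 4 member bins were called, 1 of them in the other direction. Over all bins tested, 10134 of the 16846 called had the more negative change in differentiated cells.

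Among the factors and inputs of the pathway, most promoters were low in every library. So were promoters of all genes, with medians of 13.0% in ISC P0, 8.89% in differentiated P0, 12.8% in ISC P21 and 9.42% in differentiated P21. The share of all promoters below 20% is not given here, so the counts below are not particular to the pathway. Of the 7 factors that bind X and Y boxes (Rfx5, Rfxap, Rfxank, Nfya, Nfyb, Nfyc and Creb1), 6 had promoters below 20% in all libraries, the medians over all 7 were 2.69%, 1.35%, 2.81% and 1.31%, and no region was called in either population. Nfyc, a subunit of the Y box factor, was the exception at 68.5% to 76.7%. Its window held 18 CpGs, none of them in an island, and other annotated starts of Nfyc were not examined. The largest difference in this list was in the body of Rfxap, 9.56 points in ISCs (adjusted p = 0.14, exact test). Of 9 genes between interferon-gamma and Ciita, 8 had promoters below 20% in every library. In that list the last exon of Usf1, the E box factor, fell from 56.0% to 26.3% in ISCs and from 63.2% to 17.5% in differentiated cells (adjusted p = 1.0e-17 and 1.3e-87, exact test). The 4 other class II genes tested, H2-DMb2, H2-Oa, H2-Ob and H2-Eb2, had promoters between 48.9% and 74.3%, and no region was called. The largest difference among them was 9.79 points in the last exon of H2-Eb2 in differentiated cells (adjusted p = 0.42, exact test).

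Among 10 genes of class II processing and turnover, 1 promoter was called. Ctss, the cathepsin S gene whose protease trims the invariant chain, fell from 68.6% to 53.8% in ISCs and from 73.3% to 57.3% in differentiated cells (Fisher's exact test, adjusted p = 1.8e-05 and 5.3e-07). The body of Ifi30, a lysosomal reductase, fell from 34.9% to 22.9% in differentiated cells (adjusted p = 2.0e-19, exact test) and stood at 32.5% and 25.8% in ISCs. Of 11 class I genes, 9 had promoters below 20% in every library. The median over all promoters lay below 20% in each library as well. The body of B2m, the light chain of class I, fell from 80.4% to 68.1% in ISCs and from 80.2% to 66.8% in differentiated cells (adjusted p = 1.3e-11 and 1.2e-18), while the last exon of Tap1, a peptide transporter subunit, rose from 38.5% to 73.1% and from 45.3% to 75.6% (adjusted p = 6.8e-15 and 8.8e-13, exact test). The last exon of Tap2 rose in ISCs from 69.8% to 83.3% (adjusted p = 0.019, exact test). In all, 5 of the 120 regions tested in these pathway lists were called in ISCs and 5 in differentiated cells (4.17% each), a share within the range of the 3 kinds of region over all genes.

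Promoters of marker genes were read beside the cell labels. Of 10 epithelial markers, 9 were below 20% at P0 and in differentiated cells at P21, and Krt18 reached 20.4% in ISCs at P21; Krt20, at 51.4% to 56.1%, was the one above 50%. Of 10 leukocyte markers, 9 stood above 50% in every library, with a median of 77.9%, 79.3%, 77.9% and 79.8%, and Flt3, which has a CpG-rich promoter, stood at 5.91% to 8.28%. The median over all promoters without an island CpG was 77.5%, 77.0%, 76.4% and 76.0% in the same libraries. Over those with an island CpG it was 4.86%, 2.90%, 4.67% and 3.12%. The marker levels were not compared within a kind of promoter, so they do not show which cells were sorted. Ptprc, the common leukocyte antigen, was the 1 marker promoter of the 20 in these lists called with age, where 3.64% of all promoters were called in differentiated cells: it fell from 77.1% to 66.3% in differentiated cells (Fisher's exact test, adjusted p = 0.0020) and stood at 75.7% and 68.8% in ISCs. Of the 10 bodies of epithelial markers, 3 were called lower in ISCs (against 2.5% of all bodies called in either direction) and 2 in differentiated cells (against 2.49%). Of their 10 last exons, 2 were called lower and 1 higher in ISCs (against 6.09% of all last exons), and 4 lower and 1 higher in differentiated cells (against 5.86%). The part of any of these in the losses at the class II genes was not tested.

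**Figure D5:**
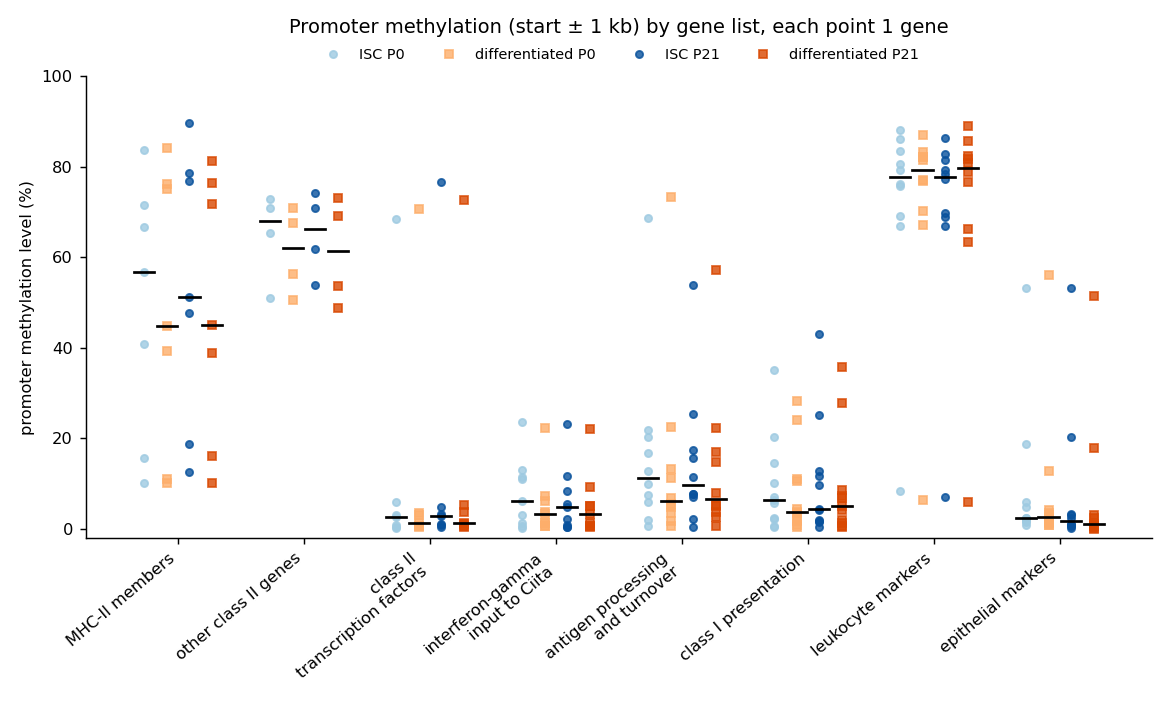
Methylation level in percent of promoters (1 kb to either side of the start) in the 8 gene lists, with 1 point per gene and library and the median as a bar. The class II genes spread from 10.1% to 89.6% and the other class II genes from 48.9% to 74.3%. The factors and class I genes lie mostly below 20%, leukocyte markers mostly above 60% and epithelial markers mostly below 10%. Over all genes the promoter medians ran from 8.89% to 13.0%, and over promoters without an island CpG from 76.0% to 77.5%.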

How the data were processed

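DNA from sorted colonic cells was bisulfite converted, amplified and sequenced as paired-end reads, which the authors mapped to mm9 with Bismark. No source used here gives the Bismark version or says whether PCR duplicates were removed. The authors deposited counts of methylated and of all calls for each CpG cytosine, with their ratio as a fraction, which was recomputed from the counts rather than read. Between 0.469% and 0.860% of listed positions were not at a CpG of mm9 and were left out. Both strands were summed, and bins of 200 bp on the 19 autosomes were kept where they held at least 2 CpGs and 10 calls in each of the 4 libraries. Bins were tested with a two-sided Fisher's exact test and the Benjamini-Hochberg adjustment over 4076373 bins, and called at an adjusted p below 0.05 and more than 15 points. The change with age was compared between populations by a z test of binomial proportions on levels with 1 call of each kind added per library. Regions were promoters (1 kb to either side of the start), last exons and bodies, with start and last exon from the transcript with the longest coding sequence. Bodies ran from the promoter to the end of the gene record without the last exon. The H2-Aa body therefore runs past the end of its transcript. Calls were pooled over each and adjusted over all autosomal protein-coding genes of a region class, with a call at more than 10 points. Intervals are Wilson 95%. A count of 0 was given the limit of 3 calls over the total. Intervals and limits take calls as independent.

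The members and gene lists were chosen with earlier results of these data known. The named items were all 7 genes, every bin called with age, the lowest bin of each gene in ISCs at P0, the other Ciita starts and, in other lists, genes with a called region or else the largest difference. Bins around the starts, those beside called bins and promoters apart from their list were named after their values were seen. The 5 CpG-rich bins of H2-Ab1 were likewise chosen afterwards. The values of 1 listed gene are not reported here. Nlrc5 and H2-Ea-ps were not tested, since they were not among the protein-coding records. Spi1 and Sppl2a were found under older symbols through RefSeq synonyms of GRCm38. Alternatives were other minimums of calls and CpGs, other sizes of difference, bins shifted by 100 bp, a promoter of 500 bp to either side and means over CpGs. The bin tests and the z test were checked on simulated calls drawn independently of each other. The test of pooled regions was not simulated. Python 3.11.15, NumPy 2.4.6, SciPy 1.17.1, pandas 2.3.3, Numba 0.67.0 and matplotlib 3.10.9 were used, with blastn for other matches of a bin in mm9.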

Additional observations from a re-analysis of the deposited data

Results flagged for a closer look

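In 3 bins the change with age differed between the 2 populations by the z test of that difference, with Benjamini-Hochberg adjustment over all bins tested. With 1 library per group the difference is between libraries.

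The Ciita bin at +10464 bp lies in intron 1, within 1 kb of the inner start at +9639 bp. There ISCs stood at 73.3% at P0 and 86.3% at P21, and differentiated cells at 96.9% and 72.2%. The change in differentiated cells minus that in ISCs was -37.6 points (binomial z test, adjusted p = 0.0081). At -4516 bp of H2-DMb1, within H2-DMb2, ISCs stood at 41.2% and 72.7% and differentiated cells at 69.5% and 53.6%, a difference in change of -47.4 points (binomial z test, adjusted p = 0.015), in a bin with a near-identical copy. At +3873 bp of H2-Eb1, over exon 2, ISCs stood at 7.69% and 17.7% and differentiated cells at 13.0% and 11.2%, a difference in change of -11.8 points (binomial z test, adjusted p = 0.0073). The ISC difference of 9.99 points there had an adjusted p of 8.5e-04 in Fisher's exact test but lay under the 15 points that a call needed.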

How the results depend on the processing

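No paired analysis was possible because each group is 1 library and the labels give no replicate numbers. For the same reason no library could be left out. With at least 4 CpGs per bin, 133 member bins were tested, of which 10 were called in ISCs and 8 in differentiated cells. All 18 of the main calls with age that had a value at this setting were kept. Shares over all bins or all regions are not given for this or any other alternative setting, so the counts below have no background beside them. With more than 30 points the calls were 10 in ISCs, 6 in differentiated cells and 2 between the populations at P0. With 15 points and no test they were 56, 41, 44 and 33 for ISCs, differentiated cells, P0 and P21, and in ISCs gains then outnumbered losses. In bins shifted by 100 bp, 2 were called between the populations at P0. Regions past 5 points numbered 13 for the pathway lists in ISCs, 3 for the 7 genes in differentiated cells and 15 for the pathway lists there. Regions past 15 points numbered 0 for the 7 genes in ISCs, 2 for the pathway lists in ISCs and 3 in differentiated cells. At 40 calls, 1 region of the 7 genes was called in ISCs. The ISC difference at H2-DMa +2974 bp turned to -0.0240 points in shifted bins. Of the 29 calls with age, 8 ended in shifted bins, 2 with single-CpG bins included (Ciita +3264 bp and H2-Eb1 -4527 bp) and 0 with at least 20 calls. The cause of these changes was not tested, except that a larger size of difference calls fewer by construction and a minimum of 4 CpGs left fewer bins to test. The calls per bin limit what could be called, with a median of 61 to 97 over the member bins.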
